A study of Homo sapiens with 18 samples.

Results

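The 42 genes described here act in homologous recombination, the Fanconi anaemia pathway, signalling of DNA damage and the SMC5/6 complex. They are a list of names by function, and the rule that lists them uses no measured value. The list was, however, chosen with earlier results of these data known. All 42 were found among the 20329 genes in the count files, and all 42 passed the filter on low counts in every comparison. RNA was sequenced from HAP1 cells, an established near-haploid human cell line that derives from a chronic myeloid leukaemia line and is known to have impaired p53 function. The study asked what happens to chromosomes when cohesin, the ring complex that holds DNA loops, can no longer be released by WAPL or loaded with the help of SCC4. The 18 samples formed 6 groups of 3. These were unmodified HAP1 controls in set A and in set B, *ΔWAPL* clone 3.3, *ΔWAPL* clone 1.14, *ΔSCC4*, and *ΔWAPL/ΔSCC4* cells. The knockouts were made with CRISPR by inserting a resistance cassette, and SCC4 was knocked out in *ΔWAPL* cells to give the double knockout. No treatment was given to any group. Each knockout genotype is represented by 1 clone per group, so a change of genotype and a property of that clone cannot be told apart. Clone 3.3, *ΔSCC4* and *ΔWAPL/ΔSCC4* were compared with control A, and clone 1.14 with control B. This assignment to sets rests on run and lane numbers in the deposited file names, because the labels give a set letter only for the controls. The labels do not say that replicates were separate cultures, so p-values measure only the spread between these samples.

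Homologous recombination repairs a double-strand break by copying an intact DNA molecule, usually the sister chromatid that cohesin holds close. The MRN complex and its partners sense the break and resect its ends, BRCA1, PALB2 and BRCA2 prepare the exposed strand, and mediators such as XRCC2, XRCC3 and the RAD54 proteins assist its invasion of the template. The kinases ATM and ATR signal the damage to CHEK1 and CHEK2, the Fanconi anaemia proteins unhook crosslinks between DNA strands, and SMC5/6, a relative of cohesin, assists repair at replication forks. Many of these genes are known to be transcribed mostly in S phase.

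The total count on genes ranged from 10007646 in *ΔSCC4* replicate 2 to 20711127 in clone 3.3 replicate 1. Values per sample are given as CPM, counts relative to library size (per 1e+06) after TMM scaling. WAPL, the gene targeted in the *ΔWAPL* cells, lay between 38 and 50.2 CPM in the 9 *ΔWAPL* and *ΔWAPL/ΔSCC4* samples and between 68 and 131.1 CPM in the 9 others. MAU2, the gene that encodes SCC4, lay between 0.509 and 1.04 CPM in the 6 samples that lack SCC4 and between 52.1 and 72.7 CPM in the 12 others. The 6 markers of blood cells examined were at or near 0, with CD33 the highest at 0.484 CPM and SPI1 at 0 counts in all 18 samples, so the blood origin of the line was not visible in them.

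Control B replicates 2 and 3 lay at opposite ends for these genes. In replicate 2, 14 of the 42 members lay more than 1.5-fold below the geometric mean of control B replicates 1 and 3, against 8.32% of all genes. In replicate 3, 14 members lay more than 1.5-fold above the geometric mean of replicates 1 and 2, against 6.78% of all genes. BRCA2, a mediator that acts on resected DNA, was at 6.99 CPM in replicate 2 and at 32.1 and 64.5 CPM in replicates 1 and 3. The lowest ratios of replicate 2 were among members with AT-rich transcripts. The members' canonical transcripts had a median GC content of 42.6%, from 36.2 to 62.8, against 48.4% for all genes tested, and a median length of 4752 bases against 3431. Across all genes, the deviation of control B replicate 2 from the other controls of its set had a Spearman correlation of 0.489 with GC content and of -0.355 with length, and that of replicate 3 of -0.575 and 0.371. Such correlations with GC content were common, and over the 18 samples ran from -0.64 in *ΔWAPL/ΔSCC4* replicate 2 to 0.734 in *ΔSCC4* replicate 1. Control A replicate 1, at 0.712, had 5 members more than 1.5-fold below the other controls of its set, against 10.8% of all genes, and control A replicate 3, at -0.595, had 5 members more than 1.5-fold above them, against 7.35%. Genes of 1 library share its depth and base composition, so these correlations are descriptions. For the comparisons below, GC content was addressed by refitting with a GC correction. Medians of genes with similar GC content and correlations of fold changes with GC content are given as descriptions.

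Levels between genes are compared per kb of the canonical transcript. FANCI, which pairs with FANCD2 in the complex that the Fanconi core ubiquitinates, was the highest at 83 CPM per kb on average over the 18 samples. It was followed by NSMCE1, a ubiquitin ligase subunit of SMC5/6, at 59.9, the break-site scaffold MDC1 at 37.6 and NSMCE4A at 37.5 CPM per kb. The lowest levels were those of FANCM at 3.96, RAD51B at 3.26 and RAD51D at 1.51 CPM per kb. The low level of RAD51D is set partly by the long annotated transcript of 9966 bases, and its raw counts were at least 158 in every sample. The ranges over the 18 samples overlapped in all 41 pairs of neighbours in this order. Within a gene, 25 of the 42 members had their lowest group mean in *ΔSCC4*, while 16 had their highest in clone 3.3 and 13 in clone 1.14. The ranges of groups next to each other in this order mostly overlapped. Shares over all genes are not given for it, so it is not shown to be particular to the members.

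**Figure D1:**
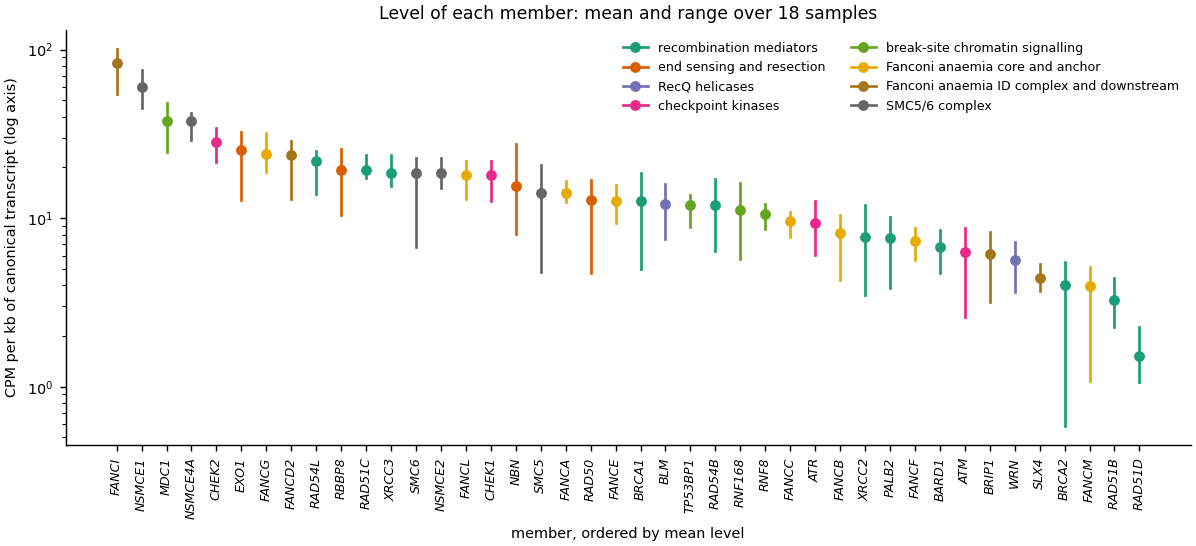
Level of each of the 42 members in CPM per kb of canonical transcript on a log axis, as the mean (point) and the range (line) over 18 samples, coloured by role. FANCI is the highest at 83 and RAD51D the lowest at 1.51, and BRCA2 has the widest range downward, to 0.585 in control B replicate 2.

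In *ΔSCC4*, FANCD2, RAD54L and CHEK2 fell and NBN rose relative to control A in edgeR's quasi-likelihood test, with Benjamini-Hochberg adjusted p-values under 0.05. Of all genes tested, 9.49% were called in this comparison. The members called were 3 lower (7.14%), where 4.03% of all genes tested were called lower, and 1 higher (2.38%), where 5.45% of all genes were. All *ΔSCC4* samples lay below all samples of control A for 9 members (21.4%), where 11.3% of all genes did so, and above them for 2 members (4.76%), where 15.3% did. The median log2 fold change of the members was -0.29, and 36 of 42 were negative. The median over all genes was close to 0, and that over all genes with a GC content between 35 and 45% was -0.11.

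The promoters of the named members are shown so that their letters can be set beside these changes. They were read from RefSeq (GRCh38.p14), at the most 5′ start listed for each gene, as 250 bases before the start and 20 from it. Capitals mark letters of an E2F motif, the site of factors that drive S phase genes, searched as TTCGCGC and TTGGCGC on both strands. FANCD2 lies on the plus strand at chr3:10026187-10026456, RAD54L on the plus strand at chr1:46247438-46247707, EXO1 on the plus strand at chr1:241847954-241848223, and RAD51D on the minus strand at chr17:35119841-35120110.
FANCD2: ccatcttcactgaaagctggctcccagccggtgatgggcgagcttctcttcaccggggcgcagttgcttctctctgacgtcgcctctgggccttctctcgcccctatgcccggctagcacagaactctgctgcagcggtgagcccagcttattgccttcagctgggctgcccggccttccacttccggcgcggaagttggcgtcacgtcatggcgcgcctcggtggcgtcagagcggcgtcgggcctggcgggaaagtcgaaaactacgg
RAD54L: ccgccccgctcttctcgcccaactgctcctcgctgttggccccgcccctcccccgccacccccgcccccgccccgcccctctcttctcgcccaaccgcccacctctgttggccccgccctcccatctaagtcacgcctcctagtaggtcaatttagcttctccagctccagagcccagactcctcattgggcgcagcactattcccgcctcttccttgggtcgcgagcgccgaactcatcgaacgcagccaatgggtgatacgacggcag
EXO1: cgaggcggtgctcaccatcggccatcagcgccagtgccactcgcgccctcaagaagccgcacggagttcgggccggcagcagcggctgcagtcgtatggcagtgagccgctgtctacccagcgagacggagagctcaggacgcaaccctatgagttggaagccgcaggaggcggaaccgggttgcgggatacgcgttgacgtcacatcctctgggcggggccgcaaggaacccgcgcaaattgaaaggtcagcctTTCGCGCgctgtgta
RAD51D: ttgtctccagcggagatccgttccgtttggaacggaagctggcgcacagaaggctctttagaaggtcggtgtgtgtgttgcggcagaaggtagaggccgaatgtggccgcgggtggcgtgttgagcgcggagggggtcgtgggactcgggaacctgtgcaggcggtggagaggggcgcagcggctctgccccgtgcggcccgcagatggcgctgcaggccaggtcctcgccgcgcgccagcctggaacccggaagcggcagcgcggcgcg
Promoters of 37 members were in the table, and NBN, RAD54B, WRN, NSMCE2 and FANCI had no entry. With 50 bases after the start included, 9 of the 37 (24.3%) held the E2F letters, against 10.7% of the genes tested and 6.1% of all promoters. The share was 25% of the 20 members called lower in *ΔSCC4* with the replicate block described below and 23.5% of the 17 others. Of the 4 genes shown, EXO1 alone held the letters searched. Other forms of the E2F site were not searched, so a promoter without capitals is not shown to lack such a site. The shares above cover the searched letters only. The CHR letters TTTGAA and TTCGAA, another cell cycle motif, were in 4 of 37 members (10.8%) and in 15.2% of the genes tested. These matches describe letters in a window and not binding.

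FANCD2, the central protein that the Fanconi core complex ubiquitinates at crosslinks, was at 66.5, 69 and 95.4 CPM in *ΔSCC4* and at 112.5, 122.2 and 135.6 CPM in control A. Every *ΔSCC4* sample lay below every control of the set, and *ΔSCC4* replicate 3 was the highest of its group. The log2 fold change was -0.69 (SE 0.17, n = 3 and 3, edgeR adjusted p = 0.024). The call was lost without control A replicate 2, *ΔSCC4* replicate 1 or *ΔSCC4* replicate 2, with an adjusted p of at most 0.12.

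RAD54L, a motor protein that helps to pair the broken end with its template, was at 50.6, 50.1 and 42.6 CPM in *ΔSCC4* and at 75.6, 72.5 and 69.2 CPM in control A. The groups did not overlap, and the 3 *ΔSCC4* values were also below those of all 12 samples of the other 4 groups, which lay between 66.1 and 77.4 CPM. The log2 fold change was -0.61 (SE 0.13, edgeR adjusted p = 0.0141). Without control A replicate 2, *ΔSCC4* replicate 2 or *ΔSCC4* replicate 3 the adjusted p was at most 0.0758 and the call was lost.

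EXO1, the exonuclease that lengthens the resected strand, was at 44.4, 60.6 and 60.5 CPM in *ΔSCC4* and at 68, 83.3 and 94.3 CPM in control A. All 3 *ΔSCC4* values lay below the 3 controls, but the log2 fold change of -0.58 (SE 0.17) did not pass the test (edgeR adjusted p = 0.06). It passed in 11 of 17 alternatives, among them DESeq2, no filter on low counts, 1 fit over all 18 samples, the GC correction and the replicate block, and the adjusted p was at most 0.209 over the alternatives. CHEK2, the checkpoint kinase that ATM activates, fell by 0.48 on the log2 scale (SE 0.13, edgeR adjusted p = 0.0404), from 54.6 to 63.2 CPM in control A to 39.8 to 43.1 CPM in *ΔSCC4*. CHEK2 has 7 pseudogenes by name in the annotation, so its count is uncertain where reads match several copies. The same limit holds for FANCD2, BRCA1 and RBBP8, with 1 such pseudogene each. Its call was lost without control A replicate 2, control A replicate 3 or any of the 3 *ΔSCC4* replicates.

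NBN, the MRN subunit that recruits ATM, moved the other way from most members. It was at 102.9, 126.6 and 108.7 CPM in *ΔSCC4* and at 72.5, 82.1 and 82.9 CPM in control A, and every *ΔSCC4* sample lay above all 15 other samples. The log2 fold change was 0.50 (SE 0.13, edgeR adjusted p = 0.0408), and leaving out any 1 of the 6 samples lost the call, with an adjusted p of up to 0.189. RAD50, its partner in MRN, had a log2 fold change of -0.30 (SE 0.16, edgeR adjusted p = 0.292), in the opposite direction.

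**Figure D2:**
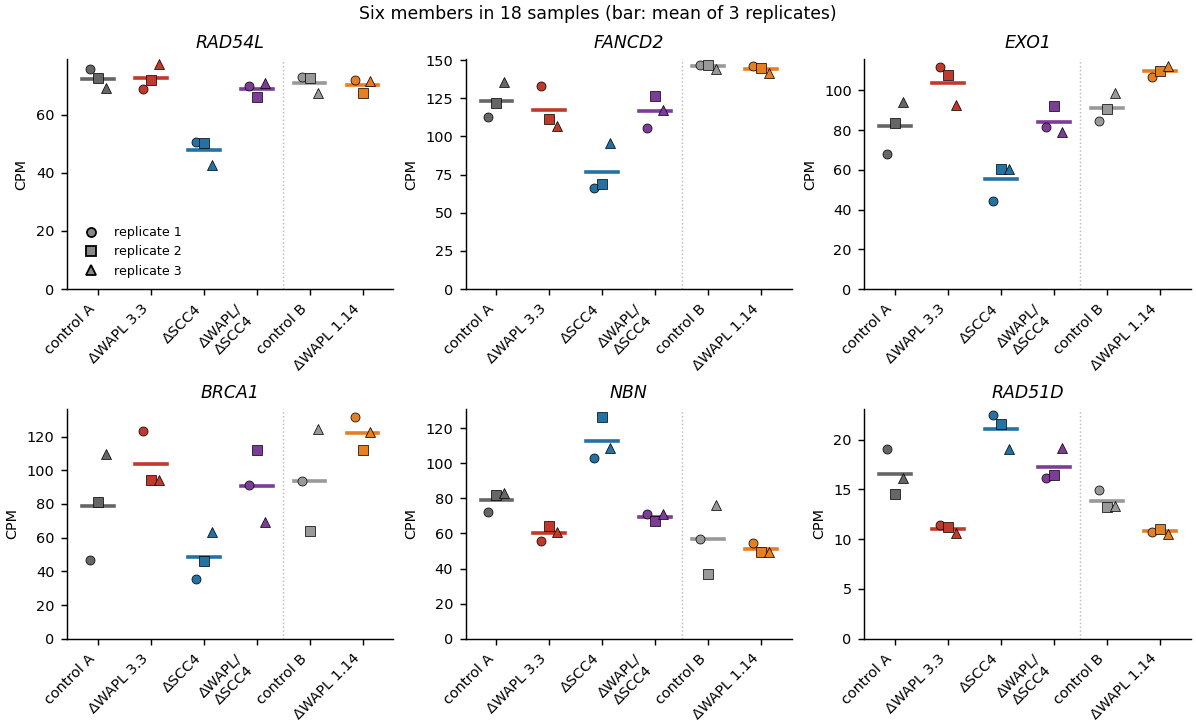
CPM of 6 members in the 18 samples, by group, with the replicate number as the marker shape and the mean of 3 replicates as a bar, and a dotted line between set A and set B. RAD54L, FANCD2 and EXO1 are lowest in ΔSCC4, NBN is highest there at 102.9 to 126.6 CPM, and RAD51D is lowest in the ΔWAPL clones at 10.6 to 11.4 CPM.

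Within set A, control and *ΔSCC4* samples that carry the same number deviated together from their group means, with correlations of 0.775, 0.17 and 0.703 over all genes. The pairing comes from the data and not from the labels. Of the pairs of groups checked, only control A and *ΔSCC4* passed. For control A and clone 3.3 the same correlations were -0.587, -0.009 and -0.583. Same-numbered samples of control A and *ΔSCC4* also shared the sign of their correlation with GC content. It was 0.712 and 0.734 for replicate 1, -0.407 and -0.439 for replicate 2, and -0.595 and -0.416 for replicate 3. Whether the pairing goes beyond this shared GC content was not tested. P-values of a fit that uses this pairing take no account of its choice from the same counts. Blocked calls and counts over pairs, here and elsewhere, therefore describe these samples under that pairing. They are not an independent test of the members. With the replicate number as a block, 25 members were called (59.5%), where 46% of all genes tested were. Of these members 23 were lower (54.8%) and 2 higher (4.76%), where 23.7% of all genes were called lower and 22.3% higher. The 23 included FANCD2, RAD54L, CHEK2, EXO1 and BRCA1. In the 3 pairs taken singly, 28 members (66.7%) were lower in *ΔSCC4* each time, against 32.6% of all genes, 3 were higher each time, against 34.8%, and 11 were mixed. The blocked count was 25, 29 and 20 when pairs 1, 2 and 3 were left out in turn, which was chosen after the data were seen. For the fits without a pair, the shares of all genes are not given here.

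Among the mediators of recombination, BRCA1 had ratios of 0.759, 0.571 and 0.578 in the 3 pairs, and a blocked fold of 0.62 (edgeR adjusted p = 7.16e-05). Without the block its values overlapped, at 35.5, 46.2 and 63.2 CPM in *ΔSCC4* against 46.8, 81 and 109.4 CPM in control A, and it did not pass (log2 fold change -0.72, SE 0.29, edgeR adjusted p = 0.164). XRCC2, a mediator of strand invasion, had a blocked fold of 0.654, and PALB2, the bridge between BRCA1 and BRCA2, of 0.717 with ratios of 0.711, 0.694 and 0.76. RAD51B and RAD54B were also called lower. BRCA2, BARD1, RAD51C and XRCC3 were not called, with blocked folds of 0.827, 0.861, 0.953 and 0.937. RAD54B shares 66% of its exonic bases on the same strand with FSBP, so reads on the shared bases may have been left out as ambiguous.

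With the block, 23.7% of all genes were called lower and 22.3% higher, and each role holds only 2 to 11 members. By role, the blocked fit called 3 of the 4 checkpoint kinases lower (CHEK2, CHEK1 and ATR). ATM, with a blocked fold of 1.01, was not called. It called 3 of the 4 break-site chromatin proteins lower, namely MDC1, the ubiquitin ligase RNF168 and TP53BP1, which holds back resection. RNF8 was lower in each pair but was not called. Both RecQ helicases, BLM and WRN, were called lower with folds of 0.74 and 0.778. In the Fanconi pathway, FANCD2, FANCI and BRIP1 were called lower, and SLX4, a scaffold for nucleases, was not. Of the core complex, FANCG and FANCM were called lower, 2 of 8 and near the share of all genes. FANCA, FANCB, FANCC, FANCE, FANCF and FANCL were not called. In SMC5/6, SMC5 and NSMCE4A were called lower with folds of 0.802 and 0.811, and SMC6, NSMCE1 and NSMCE2 were not. RAD50 was called lower, RBBP8 was not, and NBN and RAD51D were the 2 members called higher, by 1.41-fold and 1.25-fold.

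**Figure D3:**
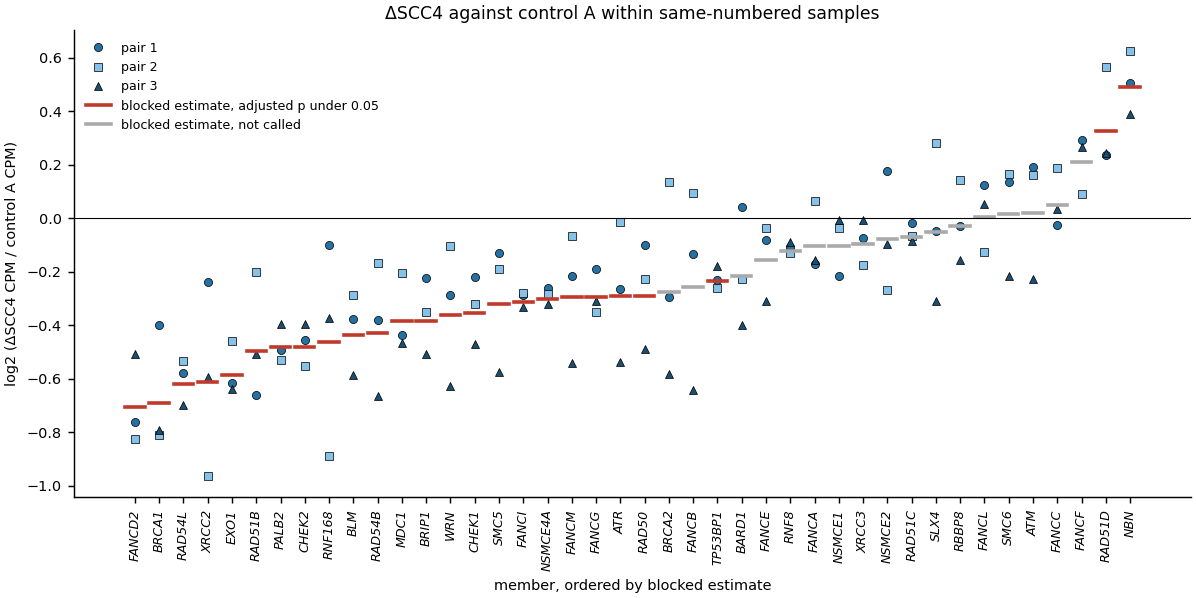
Log2 ratio of ΔSCC4 to control A CPM in each of the 3 same-numbered pairs for the 42 members, ordered by the blocked estimate (bars, red where the adjusted p is under 0.05). All 3 pairs lie below 0 for 28 members and above 0 for FANCF, RAD51D and NBN.

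Of 19 genes of S phase measured beside the members, 4 fell in *ΔSCC4* (21.1%), beside 4.03% of all genes, and all 19 had a negative log2 fold change, with a median of -0.35. Among those called, CDC6, a replication licensing factor, had a log2 fold change of -0.69, the primase subunit PRIM1 of -0.64 and the helicase subunit MCM6 of -0.55. With the block, 18 of the 19 were called lower, beside 23.7% of all genes. The part of S phase cells in the members' difference was not tested, and in bulk RNA fewer cells in a phase and less RNA per cell cannot be told apart. The paper reports impaired growth of *ΔSCC4* cells, and no change in proliferation when SCC4 was lost in cells without WAPL. Whether growth bears on these values was not tested. With a GC correction, 12 members were called without the block (2 higher, 10 lower) and 29 with it (3 higher, 26 lower). Before this correction, 9.49% of all genes were called without the block and 46% with it. The shares of all genes after the correction are not given here, so these counts cannot be set beside them.

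The unblocked count depended on single libraries. It was 13 without control A replicate 1, all lower, 0 without control A replicate 2 or *ΔSCC4* replicate 2, 1 without *ΔSCC4* replicate 1 and 2 without control A replicate 3. The shares of all genes called in these fits are not given here.

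In *ΔWAPL/ΔSCC4* cells the members were close to control A. No member was called by edgeR, where 7.95% of all genes tested were, and 2 had an unadjusted p under 0.05. DESeq2 also called none. The double knockout lay above control A in every sample for 2 members, where 11.9% of all genes did, and below it for 6 (14.3%), where 10.8% did. The median log2 fold change was 0.01, with 22 members positive and 20 negative. For 36 of the 42, the 95% interval of the change stayed within 1.5-fold in either direction. The estimates ran from -0.37 for NSMCE1 to 0.34 for FANCF, the adaptor of the Fanconi core complex. Leaving out control A replicate 3 gave 1 call, lower, and the share of all genes in that fit is not given here.

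RAD54L was at 69.8, 66.1 and 70.9 CPM in the double knockout, a log2 fold change of -0.08 (SE 0.11) from control A, and above all 3 *ΔSCC4* values. FANCD2 was at 105.8, 126.5 and 117.2 CPM and EXO1 at 81.4, 92.1 and 79.2 CPM, again with no overlap with *ΔSCC4*. The test of the difference itself, the interaction of the 2 knockouts in set A, called FANCD2 (0.69, SE 0.21, edgeR adjusted p = 0.0415) and RAD54L (0.55, SE 0.15, edgeR adjusted p = 0.029). Those are 2 of 42 members (4.76%), both positive, where 5.85% of all genes were called positive, 5.48% negative and 11.3% in either direction. The estimates of 33 members were positive, with a median of 0.19. No member was called with the replicate block, where FANCD2 and RAD54L had edgeR adjusted p-values of 0.0543 and 0.0573. BRCA1 and XRCC2, with estimates of 0.54 and 0.84 and standard errors of 0.38 and 0.43, were not called. EXO1, with an estimate of 0.29 (edgeR adjusted p = 0.416), was also not called, nor in any of 20 alternatives. A dependence of its change on WAPL is therefore not shown. The interaction call of FANCD2 was lost without any 1 of 9 of the 12 libraries, the exceptions being control A replicate 1, *ΔWAPL* clone 3.3 replicate 1 and *ΔSCC4* replicate 3. That of RAD54L was lost without any 1 of 7, namely control A replicate 2, clone 3.3 replicates 1 and 2, *ΔSCC4* replicate 3 and the 3 double knockout replicates. Of the 19 S phase genes described above, 4 were called in the interaction, all positive. In *ΔWAPL* over both clones CCNE2 rose by 0.52 and MCM6 fell, with a log2 fold change of -0.30.

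Loss of WAPL alone changed few members, and the 1 shared by both clones was RAD51D. This mediator of strand invasion was at 11.4, 11.2 and 10.6 CPM in clone 3.3 against 19.1, 14.6 and 16.1 CPM in control A, and at 10.8, 11 and 10.6 CPM in clone 1.14 against 15, 13.2 and 13.3 CPM in control B. All 6 samples of the *ΔWAPL* clones lay below all 12 other samples, double knockout included. Over both clones its log2 fold change was -0.47 (SE 0.09, edgeR adjusted p = 0.00132), and this call held in all 21 alternatives run. Within clone 3.3 it was -0.60 (SE 0.16, edgeR adjusted p = 0.0333) and within clone 1.14 -0.36 (SE 0.08, edgeR adjusted p = 0.0207). A test of whether the clones differed gave -0.22 (SE 0.16, edgeR adjusted p = 0.734). The call in clone 3.3 was lost with the replicate block, with or without a GC correction. It was also lost without control A replicates 1 or 2 or any clone 3.3 replicate, with an adjusted p of at most 0.169. That in clone 1.14 was lost with DESeq2, and without control B replicate 1 or any clone 1.14 replicate, with an adjusted p of at most 0.0873. RAD51D shares 8% of its exonic bases on the same strand with a further annotated gene that had 1 count in the 18 samples together.

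In clone 3.3, RAD51D was the only member called, 1 lower of 42 (2.38%), where 8.07% of all genes were called, 3.9% lower and 4.17% higher. The groups did not overlap for 2 members in each direction (4.76%), where 11.4% of all genes lay higher and 11.9% lower without overlap. Among members not called, RAD54B was above control A and NBN below it in every sample, with log2 fold changes of 0.42 (SE 0.16) and -0.41 (SE 0.14). In clone 1.14, 3 members rose (7.14%) and 1 fell, where 20.1% of all genes were called, 8.7% rising and 11.4% falling. Without overlap, 7 members (16.7%) were higher and 4 (9.52%) lower, beside 19.7% and 22.8% of all genes. The risen members were EXO1 at 0.26 (SE 0.07, edgeR adjusted p = 0.0337), FANCI at 0.18 (SE 0.05, edgeR adjusted p = 0.045) and SLX4 at 0.24 (SE 0.07, edgeR adjusted p = 0.0424), all on the log2 scale. Over both clones, where 17.7% of all genes were called, 2 members rose (4.76%) beside 8.56% of all genes, and RAD51D fell beside 9.13% of all genes. EXO1 had a log2 fold change of 0.30 (SE 0.08, edgeR adjusted p = 0.0204), and RBBP8, the CtIP protein that starts resection together with MRN, of 0.42 (SE 0.13, edgeR adjusted p = 0.0333). The count called in each *ΔWAPL* comparison was below the share of all genes.

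EXO1 was at 106.8, 109.6 and 112.3 CPM in clone 1.14 against 84.7, 90.4 and 98.4 CPM in control B, without overlap. In clone 3.3 it was at 111.7, 107.5 and 92.5 CPM against 68, 83.3 and 94.3 CPM in control A, where replicate 3 of each group overlapped. The call over both clones was lost with the replicate block and without control B replicate 1, with an adjusted p of at most 0.0757. That of RBBP8 was lost under 11 of 21 alternatives, among them the block and the fit without the set, and without any 1 of control A replicates 1 and 2, clone 3.3 replicates 1 and 2, control B replicate 1 and the 3 clone 1.14 replicates. FANCI, EXO1 and SLX4 in clone 1.14 were each lost without control B replicate 1 or any clone 1.14 replicate, and SLX4 also without control B replicate 2. They were also lost with all 6 controls or in 1 fit over all 18 samples, and FANCI and SLX4 with DESeq2. RAD54L, FANCD2 and CHEK2, which fell in *ΔSCC4*, had log2 fold changes over both *ΔWAPL* clones between -0.05 and -0.01 with a standard error of at most 0.07.

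**Figure D4:**
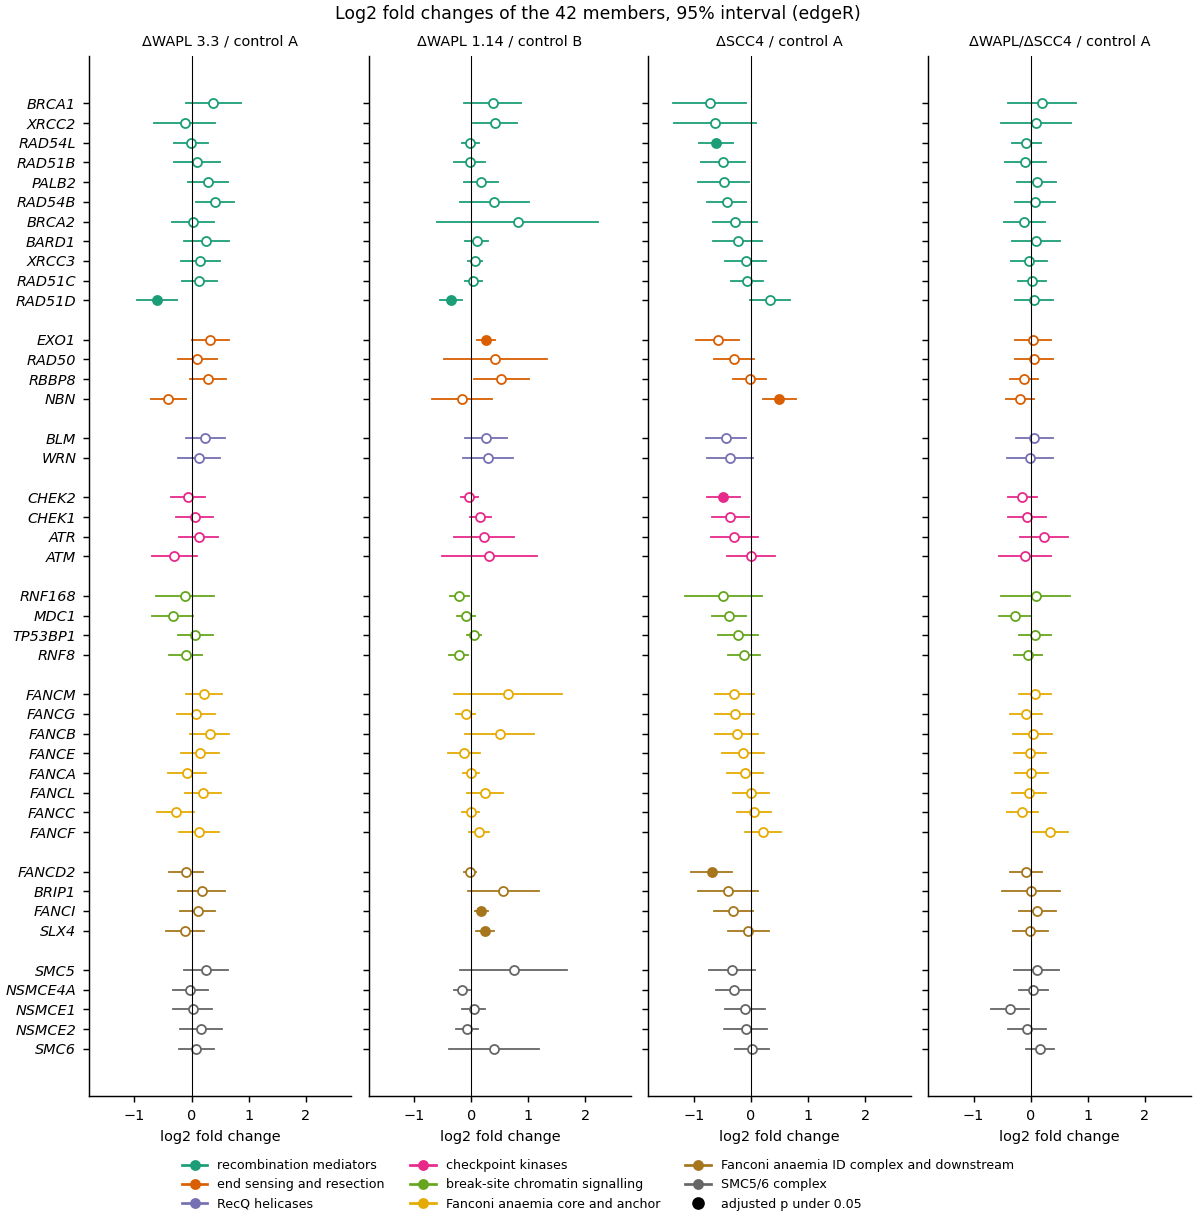
Log2 fold change with its 95% interval (edgeR) for the 42 members, grouped by role, in clone 3.3, clone 1.14, ΔSCC4 and ΔWAPL/ΔSCC4 against the controls of their set; filled points have an adjusted p under 0.05. In ΔSCC4, 36 of 42 points lie below 0, in ΔWAPL/ΔSCC4 20 do, and the intervals of BRCA2, FANCM and SMC5 are widest in clone 1.14.

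Control B replicate 2 was the lowest of all 18 samples for several members with large estimates in clone 1.14. BRCA2 had a log2 fold change of 0.82 with a standard error of 0.60, SMC5 of 0.74 (SE 0.40) and FANCM, the translocase that anchors the core complex, of 0.65 (SE 0.40), and none was called. SMC5 was at 28.4 CPM in control B replicate 2 and at 69 and 107.1 CPM in the other controls of the set, against 123.5, 100.3 and 118.8 CPM in clone 1.14. Across the 42 members the log2 fold change had a Spearman correlation with GC content of -0.688 in clone 1.14, -0.403 in clone 3.3 and 0.022 in *ΔSCC4*, against -0.326, -0.204 and 0.293 across all genes. The median log2 fold change of the members was 0.15 in clone 1.14 and 0.10 in clone 3.3, beside 0.13 and 0.09 for all genes with a GC content of 35 to 45%. Without control B replicate 3, clone 1.14 had 20 members called (18 higher, 2 lower), without replicate 2 it had 5, and without replicate 1 or any clone 1.14 replicate none, beside 4 with all samples. With all samples 20.1% of all genes were called. The shares of all genes in the fits that left out a sample are not given here.

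**Figure D5:**
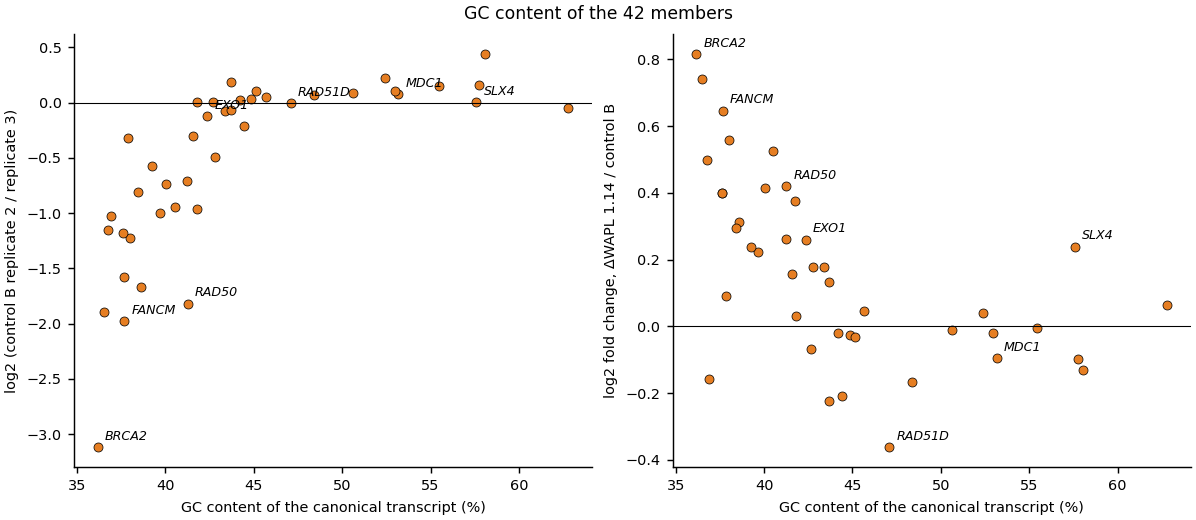
GC content of the canonical transcript (%) of the 42 members against the log2 ratio of control B replicate 2 to replicate 3 (left) and against the log2 fold change of ΔWAPL clone 1.14 over control B (right). BRCA2, at 36.2% GC, has a ratio of -3.12 between the 2 controls and the largest fold change of 0.82.

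No member was called by edgeR or DESeq2 between control B and control A, where 0.64% of all genes were called by edgeR, and none had an unadjusted p under 0.05. The 95% interval was within 1.5-fold for 26 of 42. Between the clones, no member was called by edgeR or DESeq2, where edgeR called 2.65% of all genes, and 1 had an unadjusted p under 0.05.

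Relative to clone 3.3, the double knockout had RAD51D higher and 2 members lower (4.76%), where 10.6% of all genes were called, 6.05% rising and 4.55% falling. Without overlap, 2 members lay above clone 3.3 and 7 (16.7%) below it, beside 13.2% and 14.6% of all genes. RAD51D was at 16.2, 16.5 and 19.2 CPM, a log2 fold change of 0.64 (SE 0.13, edgeR adjusted p = 0.00412) that held in all 14 alternatives run. These values overlapped control A, with a log2 fold change of 0.05 (SE 0.15). In *ΔSCC4* RAD51D was at 22.5, 21.6 and 19.1 CPM, with the highest group mean of the 6. RBBP8 fell by 0.42 on the log2 scale (SE 0.12, edgeR adjusted p = 0.0337), with 56.9, 58.2 and 57.8 CPM against 83.8, 80.6 and 67.5 CPM in clone 3.3. NSMCE1 fell by 0.40 (SE 0.12, edgeR adjusted p = 0.0457), from 65.4 to 74.8 CPM to 47.1 to 56 CPM. The count was 2 without clone 3.3 replicate 1 and 1 without clone 3.3 replicate 2 or any double knockout replicate. For these fits the shares of all genes are not given here, so the counts cannot be set beside them. This comparison shares clone 3.3 with that against control A and is not independent of it.

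Further repair genes, listed by function, were measured beside the members. Of 52 other genes of homologous recombination and the damage response that were tested, 3 fell in *ΔSCC4*, namely the nuclease subunit EME1 (-0.64), RMI2 of the BLM complex (-0.62) and the ubiquitin ligase RFWD3 (-0.55), and none rose. Those are 5.77% of the 52, beside 4.03% of all genes called lower. With the block 23 of the 52 were called lower and 3 higher, beside 23.7% and 22.3% of all genes. In clone 1.14, where 20.1% of all genes were called, 3 of the 52 were (5.77%), 2 higher and 1 lower. The risen genes were FAAP20 and BABAM2, by 0.37 and 0.26. Over both clones, where 17.7% of all genes were called, FAAP20 rose by 0.38 and FAAP24 fell by 0.35. In clone 3.3, where 8.07% of all genes were called, edgeR called none of the 52, with 4 at an unadjusted p under 0.05. In the double knockout ERCC1, a nuclease subunit of crosslink repair, fell by 0.57 relative to control A. It was the 1 of the 52 called (1.92%), where 7.95% of all genes were. Relative to clone 3.3, 4 of the 52 fell and 1 rose (9.62% called), where 10.6% of all genes were called, 4.55% falling and 6.05% rising. Among those that fell were ERCC1 by 0.51 and BABAM2 by 0.47, and RAD52 rose by 0.51.

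Of 10 genes of non-homologous end joining, the route that rejoins ends directly, edgeR called none in *ΔSCC4*, clone 1.14 or *ΔWAPL/ΔSCC4* against control, with 1, 2 and 1 at an unadjusted p under 0.05. With the block 4 of the 10 were called lower in *ΔSCC4*, beside 23.7% of all genes. XRCC4, the partner of ligase IV, rose in clone 3.3 by 0.55 and fell in the double knockout relative to clone 3.3, with a log2 fold change of -0.72. NHEJ1 fell over both clones, with a log2 fold change of -0.42.

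Among 20 targets of p53, 4 rose and 2 fell in *ΔWAPL* over both clones (30%), where 17.7% of all genes were called. CDKN1A, the inhibitor of cyclin-dependent kinases, rose by 1.25 and the stress gene SESN1 by 0.72, and TP53I3 fell, with a log2 fold change of -0.81. In clone 3.3 2 rose and 2 fell (20%), where 8.07% of all genes were called, and in clone 1.14 3 rose and 1 fell (20%), where 20.1% were. In *ΔWAPL/ΔSCC4* CDKN1A rose by 1.17 and PMAIP1 by 0.53, and in *ΔSCC4* TP53I3 rose by 0.71, with none of the 20 falling. Clone 1.14 replicate 1 was the highest of its group for several of these genes. CDKN1A was at 49 CPM in it and at 15.2 and 15.4 CPM in replicates 2 and 3, SESN1 at 37.5 against 24.3 and 24.6 CPM, and BTG2 at 111.1 against 44.8 and 44.1 CPM. Without this sample, which was left out after the data were seen, 2 targets were called in clone 1.14, both higher, and 6 over both clones, of which 3 rose and 3 fell. Over both clones CDKN1A then rose by 0.86 and SESN1 by 0.59, and BTG2 was called lower, with a log2 fold change of -0.66.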

How the data were processed

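Polyadenylated RNA was sequenced from strand-specific libraries, and the authors deposited raw, whole-number counts of reads for each gene. The submitters' processing notes name TopHat2 2.0.9, HTSeq, DESeq2 1.10.1 and hg19, the study's methods name another TopHat version, and the annotation release is not given in the sources used here. Reads not assigned to a gene (20.3 to 22.6% of the reads listed) were left out. Symbols, positions, transcript lengths and GC content came from a GRCh37 annotation that matched 96.6% of the gene identifiers. Members and gene lists were chosen with earlier results of these data known.

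Counts were tested over all genes with edgeR 4.0.16 (quasi-likelihood, TMM, filterByExpr, R 4.3.3) and Benjamini-Hochberg adjustment at 0.05, for 9 comparisons. Comparisons over both clones had the set as a covariate. The scripts were tested on simulated data. Alternatives were DESeq2 1.42.0, edgeR with DESeq2's scaling, dropping the low-count filter or raising it to 10 counts per sample, 1 fit over all 18 samples, a GC correction (loess, span 0.5), the replicate block, all 6 controls, no set covariate and leaving out each sample. No other pair of groups passed the pairing check given for control A and *ΔSCC4*.

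Members called in the same direction in 2 or more of 5 knockout comparisons with control, or in an interaction, were given in every sample, which named EXO1, FANCD2, RAD51D and RAD54L. Members called elsewhere were named, and at most 3 called genes per further list and comparison. Values shown for BRCA1, BRCA2, NBN, SMC5 and CHEK2, and genes named beyond this, were chosen after their values were seen. A gene of the further lists is not reported here. The counts of replicates differed by more than sampling noise in all 18 pairs.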

Additional observations from a re-analysis of the deposited data

Results flagged for a closer look

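Over the 6 controls, 3 of the 42 members tested had a sample apart from the others by Dixon's test, where chance gives about 1 in 20 groups. For BRCA2, control B replicate 2 was the lowest at 6.99 CPM against 32.1 to 64.5 CPM, a gap of 0.68 of the range of log2 values. For RNF168, a ubiquitin ligase at break sites, control A replicate 1 was the lowest at 32.9 CPM against 61.2 to 86.3 CPM, with a gap of 0.642. For CHEK2, control A replicate 2 was the highest at 63.2 CPM against 51.8 to 55.7 CPM, with a gap of 0.634. A difference between the effect of SCC4 loss with and without WAPL was called for FANCD2 (0.69) and RAD54L (0.55), both on the log2 scale.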

How the results depend on the processing

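Except for the replicate block in *ΔSCC4*, the shares of all genes called under the alternatives are not given, so the counts below stand alone. The number of members called moved as follows. Leaving out each sample gave 0 to 1 of a main 1 in clone 3.3, 0 to 20 of 4 in clone 1.14, 1 to 7 of 3 over both clones, 0 to 13 of 4 in *ΔSCC4*, 0 to 1 of 0 in *ΔWAPL/ΔSCC4*, 1 to 3 of 3 in the double knockout against clone 3.3 and 0 to 3 of 2 in the interaction. Over both clones the highest count, 7, came without control A replicate 3 or control B replicate 3, and the lowest, 1, without control B replicate 1. In clone 3.3 the replicate block gave 0, also with a GC correction, and the GC correction alone 3. In clone 1.14 DESeq2 gave 1, 1 fit over 18 samples 2, all 6 controls 2, and the GC correction with the block 11. Over both clones DESeq2 gave 5 and the GC correction 8. In *ΔSCC4* 1 fit over 18 samples gave 9, the GC correction 12, the replicate block 25, the block with a GC correction 29, and the block without pair 1, 2 or 3 gave 25, 29 and 20. In *ΔWAPL/ΔSCC4* the GC correction gave 1, and against clone 3.3 it gave 6 with or without the block. In the interaction no filter gave 1 and the replicate block 0. The cause was not tested. No called member turned its direction under these alternatives, and counts between the clones and between the controls stayed at 0. At these depths the median standard error of a log2 fold change was 0.16 in *ΔSCC4* and clone 3.3 and 0.09 in clone 1.14.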
